A study of Mus musculus with 15 samples.

Results

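RNA sequencing of whole mouse testes gave 15 libraries in 5 groups of 3, and these libraries fell into a histone-rich set of 6 and a mitochondria-rich set of 9 that did not follow the treatments. The histone-rich set held replicate 1 of the MTX, HMS-I1, AA and TSA groups together with Control 1 and Control 2. The mitochondria-rich set held replicates 2 and 3 of the 4 treated groups together with Control 3. All animals were labelled C57/BL6, total RNA was the labelled starting material, and the labels gave no dose, duration, age or full name for the treatment abbreviations. For the HMS-I1 group the titles numbered 3 replicates of HMS-I1, whereas the treatment field read HMS-I1, HMS-I2 and HMS-I3, so that the grouping rests on the titles. The labels did not say whether replicates came from separate animals, whether poly(A) RNA was selected, whether ribosomal RNA was removed, or whether any step of library preparation differed between libraries.

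The sets were chosen from the expression values themselves, so each difference between them is given as a description with no test. Values are normalised counts, that is, estimated read numbers divided by one scaling factor per library. The comparison covered the 17896 of 36118 genes whose mean over the 15 libraries was at least 10. Just inside that limit was the predicted gene Gm28186, with a mean of 10.01, and just outside it was Gm3531, with a mean of 9.994. A log2 difference is the mean of log2(normalised count + 1) over the 6 histone-rich libraries minus the mean over the 9 mitochondria-rich libraries, so that a positive value is higher in the histone-rich set. Genes are called higher or lower when every library of one set lay beyond every library of the other. Values of a set are given as its lowest, median and highest library.

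The mRNAs of the clustered, replication-dependent histone genes are unusual among the messages of animal cells. They have no introns and end in a short stem-loop in place of a poly(A) tail. The stem-loop is bound by SLBP and the pre-mRNA is cut with the help of the U7 small nuclear RNA, and the mRNA is normally made while DNA is copied. Replacement histone genes lie outside the clusters and make ordinary polyadenylated mRNA. In the testis, spermatogonia divide and enter meiosis as spermatocytes, which form round and then elongating spermatids, where testis histones, transition proteins and finally protamines take over the packing of DNA. Somatic Sertoli, peritubular myoid, Leydig, endothelial and immune cells surround them. The 13 mRNAs of the mitochondrial genome encode respiratory chain subunits, most carry short poly(A) tails, and stretches of the same sequence lie in the nuclear chromosomes as pseudogenes.

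The 3′ stem-loop was searched for in the annotated transcripts because it is the feature that sets these messages apart. The motif GGNNNTTTTCANNNCC with arms of 6 pairing bases, read on the transcript strand, occurred in 43 of 55450 annotated mouse genes, or 0.0775%. Among the genes of the count table, 40 carried it, and 35 of these were clustered histone genes. Another 34 clustered histone genes had annotated transcripts without it. The 26 histone genes of the commonest form shared the stem-loop of Hist1h2bm, 7 shared that of Hist1h4c and 2 shared that of Hist1h4j. The following sites, from the GENCODE M21 transcripts of build GRCm38, show these forms with 7 flanking bases on either side in lower case and the stem-loop in capitals.
Hist1h2bm (H2B, chromosome 13): acacaaaGGCTCTTTTCAGAGCCactaagc
Hist1h1e (H1, chromosome 13): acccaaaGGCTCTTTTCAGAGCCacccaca
Hist1h4c (H4, chromosome 13): aacaaaaGGCCCTTTTCAGGGCCacccaca
Hist1h4d (H4, chromosome 13): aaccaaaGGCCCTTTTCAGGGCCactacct
Hist1h4j (H4, chromosome 13): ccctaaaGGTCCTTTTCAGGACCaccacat
Hist2h2aa2 (H2A, chromosome 3): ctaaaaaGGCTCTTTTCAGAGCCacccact
Hist2h2aa1 (H2A, chromosome 3): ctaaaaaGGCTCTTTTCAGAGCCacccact
Trim17 (a ubiquitin ligase of the TRIM family, chromosome 11): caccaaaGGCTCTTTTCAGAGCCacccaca
The Hist2h2aa1 and Hist2h2aa2 sites are identical over the stretch shown. Trim17 carries the Hist1h2bm form of the stem-loop within its annotated transcript, and is 1 of the 5 carriers that are not clustered histone genes.

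Clustered histone mRNA made up 0.283% to 0.429% of a histone-rich library, with a median of 0.381%, against 0.0212% to 0.0465% of a mitochondria-rich library, with a median of 0.0317%. The lowest of the histone-rich libraries was MTX 1 and the highest of the mitochondria-rich libraries was HMS-I1 3, so that a wide gap lay between the sets. Mitochondrially encoded mRNA made up 1.08% to 1.40% of a histone-rich library (median 1.20%), against 3.54% to 13.7% of a mitochondria-rich library (median 8.06%). HMS-I1 3 was the lowest and MTX 2 the highest of the mitochondria-rich libraries, and the highest of the histone-rich ones was Control 2.

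**Figure D1:**
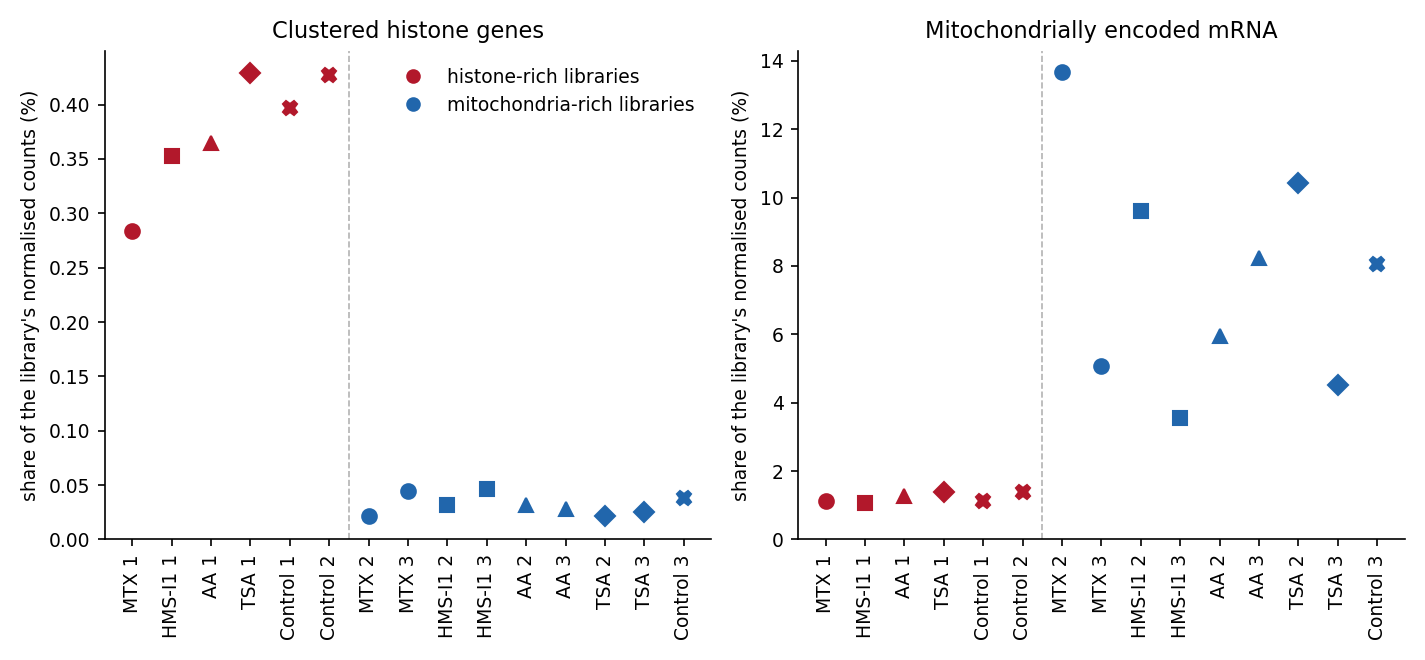
Share of each library's normalised counts, in percent, taken by the clustered histone genes (left panel) and by the mitochondrially encoded mRNAs (right panel), with 1 point per library and the marker shape giving the treatment group. Histone-rich libraries, left of the dashed line, lay at 0.283% or more for histones and at 1.40% or less for mitochondrial mRNA, against 0.0465% or less and 3.54% or more in the mitochondria-rich libraries.

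Sequencing depth differed between the sets. Since a low normalised count is a multiple of what 1 read is worth, the commonest smallest value gave an estimate of 11600000 to 15500000 reads in the histone-rich libraries (median 14500000), against 31000000 to 68900000 in the mitochondria-rich libraries (median 55900000). This estimate is rough, because 6.98% to 9.71% of low values in the histone-rich libraries and 9.84% to 14.98% in the mitochondria-rich libraries were whole multiples of it within a tolerance of 0.02. Genes above 0 numbered 20683 to 21244 in the histone-rich libraries and 21363 to 22858 in the mitochondria-rich libraries. The part of depth in the differences below was not tested.

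Of the 17896 genes, 2286 (12.8%) were higher and 2154 (12%) were lower in the histone-rich libraries, and the median difference of all genes was 0.00 on the log2 scale. Differences of at least 4-fold were less evenly divided, with 476 genes higher and 203 lower. The sets were drawn from these values, so these counts serve only as the background for the counts given below. The 12 largest differences in the higher direction lay between 8.67 and 11.3 on the log2 scale, and 8 of the 12 genes were clustered histone genes. The 12 largest in the lower direction lay between -7.40 and -13.7, and 11 of those 12 genes were annotated pseudogenes with near-identical copies elsewhere.

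Among the clustered histone genes, 49 of the 59 that passed the filter were higher in the histone-rich libraries and 3 were lower, with a median difference of 5.29. Another 10 of the 69 in the table had means under the limit, and most of these overlapped between the sets. Some of the 59 passed only through the histone-rich libraries, such as Hist1h2bl (median 441 against 0) and Hist1h3h (118 against 0.459). The counts of higher genes here and by class therefore describe only the members that passed. Over the 59 genes the mean log2 level was 7.79 to 8.84 in the histone-rich libraries, against 2.93 to 3.84 in the mitochondria-rich libraries. All 5 histone classes were higher in the histone-rich libraries within each of the 5 treatment groups.

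Of the 6 linker histone (H1) genes all were higher, with a median difference of 5.40. Hist1h1t, the testis-specific linker histone of spermatocytes, had 15472, 19411 and 20960 normalised counts in the histone-rich libraries, against 47.4, 94.2 and 147 in the mitochondria-rich libraries, a difference of 7.65. Hist1h1a, a linker histone found in spermatogonia, had 7442, 9648 and 10653 against 11.9, 16.8 and 41.1, a difference of 8.80. Hist1h1c differed least of the linker histones, with 840, 951 and 1113 in the histone-rich libraries and 221, 339 and 478 in the mitochondria-rich ones, and the sets did not overlap.

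The H2B and H4 classes stood farthest from equality. Of 17 H2B genes 12 were higher and none was lower, with a median difference of 6.59, and of 13 H4 genes 12 were higher and none was lower, with a median of 8.09. Hist1h2ba, the testis H2B that replaces other forms in spermatocytes, had 18713, 29895 and 36423 normalised counts in the histone-rich libraries, against 41.9, 54.9 and 96.3 in the mitochondria-rich libraries. Hist1h2bm, whose stem-loop heads the sequences above, had 1031, 1702 and 2405 against 0.415, 2.00 and 7.88, a difference of 9.09. The lowest histone-rich library lay far above the highest mitochondria-rich library for both genes. Hist1h4c had 5590, 11426 and 15204 against 22.2, 30.5 and 59.97, and Hist1h4d had 1575, 2220 and 2418 against 0, 2.53 and 5.27. In contrast Hist1h4a, with 668, 1643 and 2000 in the histone-rich libraries and 72.4, 713 and 1023 in the mitochondria-rich ones, overlapped between the sets.

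Of 13 H2A genes 10 were higher and 2 were lower, with a median difference of 4.13, and of 10 H3 genes 9 were higher and 1 was lower, with a median of 4.33. Hist1h2aa, the testis H2A that pairs with the testis H2B, had 9266, 10492 and 14942 normalised counts in the histone-rich libraries, against 12.2, 17.9 and 24.8 in the mitochondria-rich libraries. Hist3h2a, an H2A gene outside the major cluster, had 2959, 4864 and 6279 against 276, 361 and 549. Hist1h3f had 180, 206 and 254 against 2.37, 3.00 and 6.93. The sets were fully apart for all 3 genes, by 9.20, 3.64 and 5.53 on the log2 scale.

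Not every clustered histone gene followed its class. Hist2h2be, an H2B gene with an annotated poly(A) signal, had 674, 746 and 791 normalised counts in the histone-rich libraries and 443, 736 and 952 in the mitochondria-rich libraries, a difference of 0.13 with overlapping sets. Hist1h2bc had 318, 443 and 529 against 473, 575 and 737, again with overlap. The 3 lower genes were Hist2h2aa1 (-2.58), Hist1h2ap (-3.13) and Hist2h3c1 (-0.84). Of these, Hist2h2aa1 and Hist1h2ap share 89.6% and 93.4% of their 31-base words with other transcripts, so that reads cannot be assigned to them with certainty. The same limit holds for some genes that were higher, such as Hist1h3h (94.2%), Hist1h4m (91.7%) and Hist1h2bl (88.6%).

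The near-identical Hist2h2aa1 and Hist2h2aa2 differed in opposite directions, and the part of read assignment in this was not tested. Hist2h2aa2, all of whose 31-base words occur in other transcripts, had 1190, 2724 and 3361 normalised counts in the histone-rich libraries and was listed at 0 in all 9 mitochondria-rich libraries. Hist2h2aa1 had 171, 1195 and 1405 in the histone-rich libraries, against 2706, 4383 and 7638 in the mitochondria-rich libraries. Summed, the pair had 1361, 3934 and 4766 against 2706, 4383 and 7638, a difference of -0.56 with overlapping sets. The largest single difference among the histone genes thus fell on a gene whose sum with its copy overlapped between the sets.

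**Figure D2:**
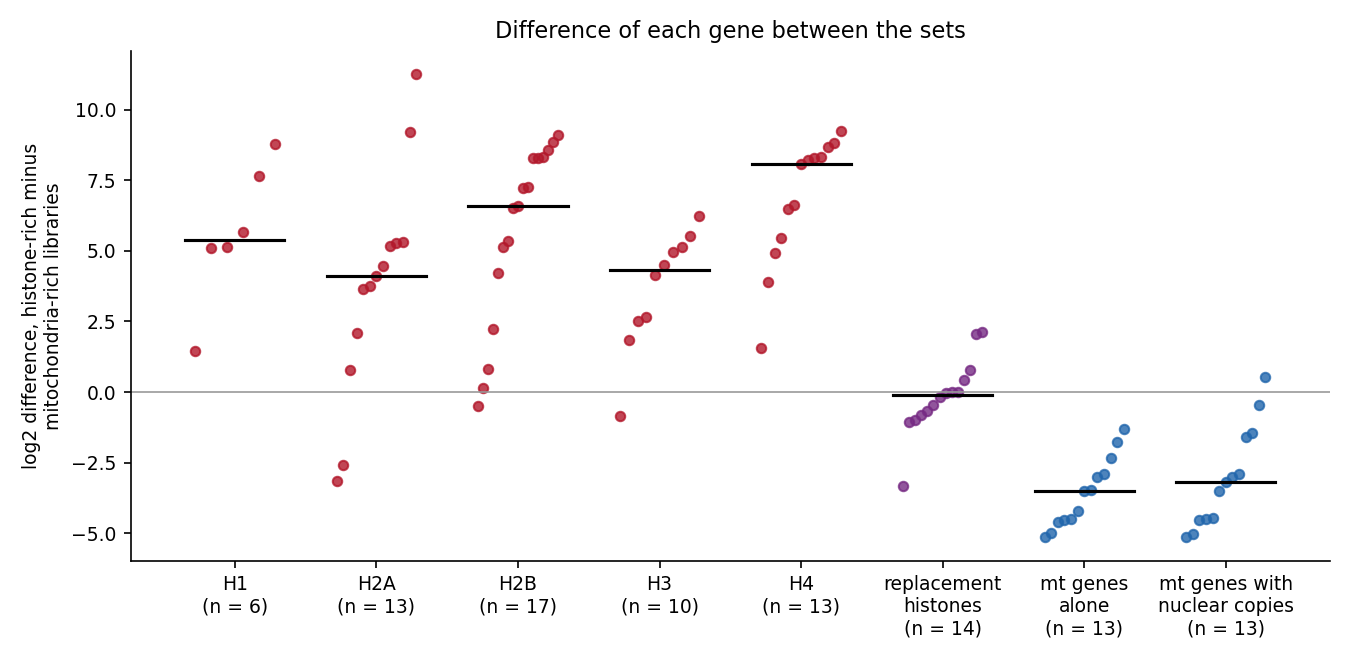
Log2 difference of each gene, histone-rich minus mitochondria-rich libraries, for the clustered histone genes by class, the replacement histone genes, and the mitochondrially encoded genes alone and summed with their nuclear copies, with 1 point per gene and a bar at the median. Medians of the histone classes lay between 4.13 and 8.09, that of the replacement histones was -0.09, and that of the mitochondrial genes alone was -3.50.

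The stem-loop and the poly(A) signal of the annotated transcripts were set beside the differences. The stem-loop counted at any position, such as 3 bases from the transcript end in Hist1h4m and 4884 bases in Hist1h1d. These classes are therefore not kinds of 3′ end. The 23 tested histone genes with a stem-loop and no AATAAA poly(A) signal in the last 50 bases had a median difference of 5.14. Those with neither feature numbered 22 and had a median of 5.60, the 8 with both had 3.93, and the 6 with AATAAA alone had 3.58. Some annotated transcripts with neither feature are short, such as those of Hist1h2bl (381 bases) and Hist1h4k (312 bases). All 4 classes had medians above 3, and over all tested genes with AATAAA alone the median was -0.04 (n = 12725). Whether the true 3′ ends follow these classes was not tested. Of the 6 histone genes with AATAAA alone, 2 were higher, 1 of them Hist1h1t. The 5 stem-loop carriers outside the histone genes were divided, with Lhx9 (a LIM homeobox factor) at -0.27, Syncrip (an RNA-binding protein) at -0.84, Cdr2l at -0.51 and the H2B family gene H2bfm at 0.20. Trim17 was higher, with 6547, 9258 and 9944 normalised counts in the histone-rich libraries against 971, 4321 and 5921 in the mitochondria-rich libraries.

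Replacement and variant histones, whose mRNAs are polyadenylated, were divided. Of 14 tested members 3 were higher and 3 were lower, with a median of -0.09. Higher were Hils1, the linker histone of elongating spermatids, with a difference of 2.07, the sperm H2A variant H2al2a with 2.14, and H1fnt, another spermatid linker histone, with 0.78. H2al2a had 7603, 10038 and 12301 normalised counts in the histone-rich libraries, against 831, 1909 and 5319 in the mitochondria-rich libraries. All 3 encode histones of spermatids. Lower were H1fx (-3.31), H1f0 (-0.98) and H3f3a (-0.68), which encode linker histones and H3.3 of many cell types. H1fx had 29.1, 66.4 and 122 in the histone-rich libraries, against 469, 699 and 796 in the mitochondria-rich ones. The other H3.3 gene, H3f3b, differed by -0.01 and overlapped.

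Genes for the machinery that makes histone mRNA ends differed little as a group. Of 12 tested members 2 were higher and 1 was lower, with a median of 0.05. Slbp, which encodes the stem-loop binding protein, had 4241, 4393 and 4737 normalised counts in the histone-rich libraries and 3595, 4298 and 5276 in the mitochondria-rich libraries. Sympk, the scaffold of the cleavage complex, was higher (1.44), as was the U7 particle protein Lsm10 (0.75), while the endonuclease Cpsf3 was lower (-0.72). Of 20 poly(A) tail enzymes and binding proteins 3 were higher and 3 were lower, with a median of -0.15. Pabpc1, the main cytoplasmic poly(A) binding protein, had 26372, 28996 and 31660 in the histone-rich libraries, against 37221, 69605 and 133925 in the mitochondria-rich libraries. Its relative Pabpc4 was lower too (-1.10), while the deadenylase subunit Pan3 (1.22) and the poly(A) polymerase Tent5b (1.19) were higher.

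Mitochondrial mRNAs were lower in the histone-rich libraries for 12 of the 13 genes, and mt-Nd3, the remaining one, had overlapping sets. The median difference was -3.50 for the genes taken alone. Differences reached -5.15 for mt-Atp8 and -5.00 for mt-Nd4l, which encode short subunits of ATP synthase and complex I, and were least for mt-Co1 (-1.75), a cytochrome oxidase subunit, and mt-Nd3 (-1.30). mt-Nd4, a complex I subunit, had 5503, 6533 and 7689 normalised counts in the histone-rich libraries, against 36046, 127666 and 471452 in the mitochondria-rich libraries. The mitochondria-rich libraries varied far more among themselves than the histone-rich ones for this gene.

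The counts listed for nuclear copies of the mitochondrial genes behaved differently. Reads from a copy identical to its gene cannot be told apart from those of the gene by sequence. The part of read assignment in the counts of copies and genes was not tested. Of 16 copies found by sequence, 9 passed the filter, 4 were higher and 1 was lower. Copies made up 0.675% to 1.05% of a histone-rich library, against 0.177% to 0.456% of a mitochondria-rich library. Gm28437, a copy of mt-Co3 with 100% identity on chromosome 1, had 75372, 111210 and 184586 normalised counts in the histone-rich libraries, against 0, 2258 and 58004 in the mitochondria-rich libraries. mt-Co3 itself had 15677, 61453 and 117392 against 148270, 268606 and 336483. The nuclear copy had the larger count in MTX 1, HMS-I1 1 and Control 1, and the mitochondrial gene had it in AA 1, TSA 1 and Control 2 and in all 9 mitochondria-rich libraries. The sum of both had overlapping sets, at -0.46.

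Other pairs split in other ways. For mt-Co2 the 100% identical copy Gm28661 had 18961, 80466 and 95233 in the histone-rich libraries, against 0, 366 and 10996 in the mitochondria-rich ones. The difference of mt-Co2 was -4.61 alone and -1.45 summed with its copies, the sets staying apart. For mt-Nd4 the copy Gm28439, also 100% identical, went the other way. It had 0, 0 and 5.98 in the histone-rich libraries, against 1745, 35591 and 171282 in the mitochondria-rich libraries, which was the largest difference in the whole table (-13.7). Summed with its copy, mt-Nd3 was higher in the histone-rich libraries (0.55), at 23272, 27693 and 29874 against 13724, 19221 and 22396. With all copies added, mitochondrial sequence still made up 1.83% to 2.16% of a histone-rich library, against 3.73% to 14.1% of a mitochondria-rich library.

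**Figure D3:**
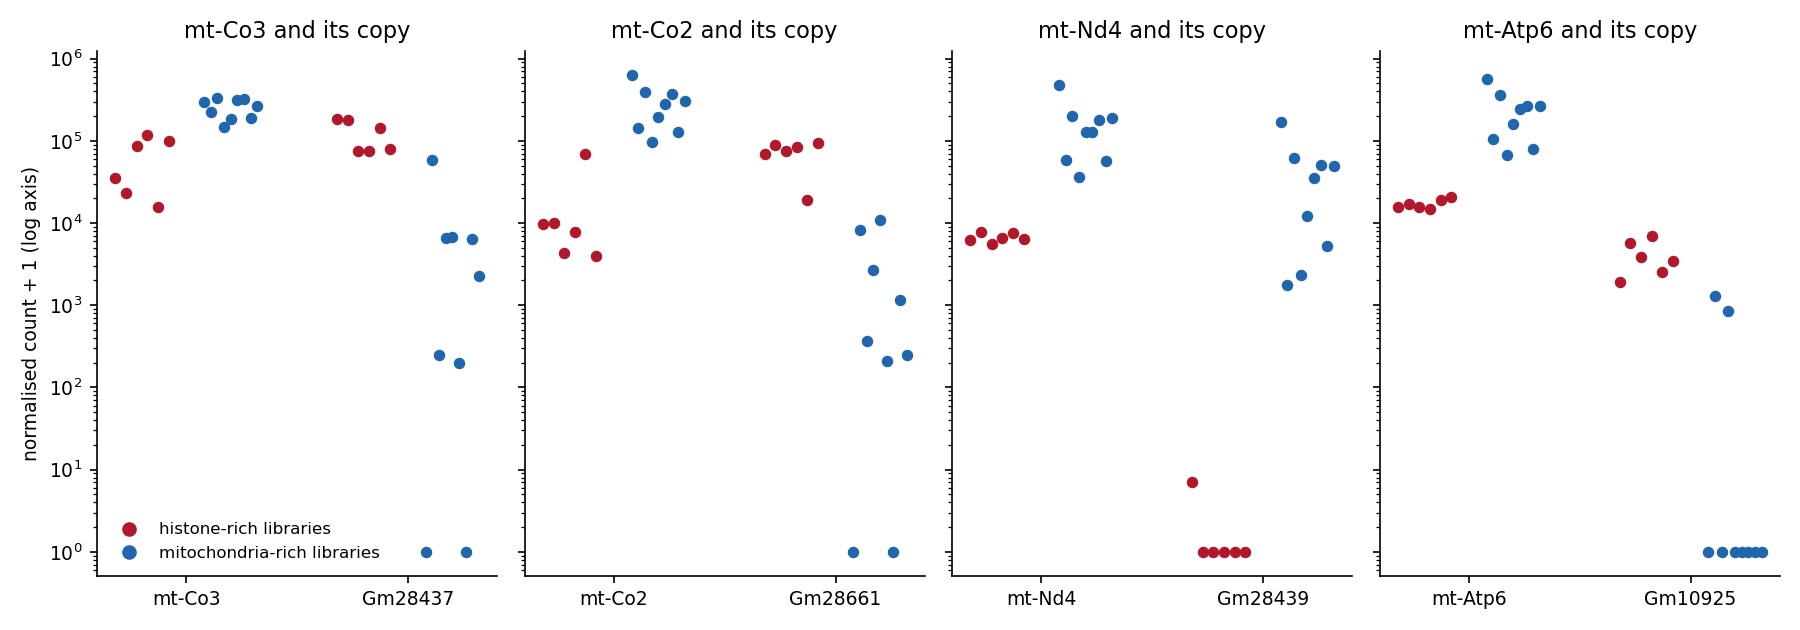
Normalised count + 1 on a log axis for 4 mitochondrial genes (mt-Co3, mt-Co2, mt-Nd4 and mt-Atp6) and a nuclear copy of each, with 1 point per library and the histone-rich libraries left of the mitochondria-rich ones. The copies of mt-Co3 and mt-Co2 had medians of 111210 and 80466 in the histone-rich libraries against 2258 and 366 in the mitochondria-rich libraries, and the copy of mt-Nd4 had medians of 0 and 35591. Each copy shown is 100% identical to its gene, so reads from the 2 cannot be told apart by sequence.

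The same division of near-identical sequences appeared outside the mitochondrial genes. Genes that share at least 80% of their 31-base words formed 325 families with 1072 tested genes, of which 107 (9.98%) were both fully apart and at least 4-fold different. For the other 16769 genes that number was 569, or 3.39%. In 11 families 1 member was higher and another lower, and the family sums overlapped in 6, were higher in 2 and were lower in 3. 1700047I17Rik2 had 1609, 2211 and 2864 normalised counts in the histone-rich libraries and was listed at 0 in the mitochondria-rich ones, whereas its near-copy Fam177a was lower by 4.34 on the log2 scale. Their sum was lower, at 2756, 3403 and 3599 in the histone-rich libraries against 4551, 6544 and 13330 in the mitochondria-rich libraries. In all, 47 genes were at 0 in all histone-rich libraries and 5 were at 0 in all mitochondria-rich libraries, and each of these genes shared at least 50% of its words with another transcript.

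Retrocopies of ribosomal protein genes, among them Rpl31-ps8, Rpl28-ps1, Rpl10a-ps1 and Rps23-ps1, stood among the largest lower differences. Rpl31-ps8 was listed at 0 in all histone-rich libraries and had 1442, 2694 and 3226 normalised counts in the mitochondria-rich libraries. Summed with Rpl31, its parent gene for a large-subunit protein, the counts were 9483, 10513 and 11449 against 6398, 7624 and 14361, with overlap. Rps23-ps1 had 0, 15.6 and 245 in the histone-rich libraries, against 3045, 4399 and 6410 in the mitochondria-rich ones, while Rps23, for a small-subunit protein, was higher by 1.62. Pseudogene and parent moved apart in both cases, and the sum of the Rps23 family (0.65) also overlapped.

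Several genes that overlap short structured RNAs were higher in the histone-rich libraries, although their class as a whole lay near the background. Of 271 tested genes whose exons hold such an RNA on the same strand, 39 (14.4%) were higher and 32 (11.8%) lower (median -0.08). Over all genes the shares were 12.8% and 12%. With the RNA on the opposite strand, 22 of 95 genes (23.2%) were higher and 14 (14.7%) lower (median 0.03). Ccnb1ip1, which encodes a ubiquitin ligase needed for meiotic crossing over, had 222044, 353169 and 448329 normalised counts in the histone-rich libraries, against 124, 217 and 467 in the mitochondria-rich libraries, a difference of 10.4. It alone made up 0.729% to 1.46% of a histone-rich library, against 0.000407% to 0.00157% of a mitochondria-rich library. Of the 319 bases of Rpph1, the RNA subunit of RNase P, which RNA polymerase III makes, 233 lie within a Ccnb1ip1 exon on the same strand, so reads from them cannot be told apart by sequence. Rpph1 itself is not among the genes analysed here.

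Further genes of this kind held small nuclear or small Cajal body RNA sequence. Creb5, a transcription factor gene with an exon that holds the small nuclear RNA gene Gm25818, had 5588, 11229 and 17560 normalised counts in the histone-rich libraries, against 104, 624 and 3556 in the mitochondria-rich libraries. Ncapd2, a condensin subunit, overlaps 237 of the 325 bases of the small Cajal body RNA Scarna10, annotated as a small nucleolar RNA, and had 10316, 13441 and 15952 against 1112, 1244 and 1888. Grcc10, which holds the U7 RNA gene Rnu7, had 1797, 2062 and 2486 against 433, 835 and 1425. The sets were apart for all 3. Of 14 tested genes whose exons hold small nuclear RNA 5 were higher and none was lower (median 0.49), whereas the 59 that hold small nucleolar RNA, Ncapd2 included, had 7 higher and 5 lower (median -0.12) and the 181 that hold microRNA had 22 higher and 24 lower (median -0.11). The 9 listed structured nuclear or polymerase III RNAs and both mitochondrial ribosomal RNAs were not analysed here. Of 9 listed long nuclear noncoding RNAs Tug1 was the 1 analysed, and it was higher (0.83).

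Short messages of housekeeping complexes were more often higher than lower. Of 81 cytosolic ribosomal protein genes 21 were higher and 1 was lower, with a median of 0.48, and the list was higher in the histone-rich libraries of all 5 groups. Rpl38, for a large-subunit protein, had 11214, 12430 and 13705 normalised counts in the histone-rich libraries, against 1625, 2184 and 5016 in the mitochondria-rich libraries. Rpl41, among the shortest of all coding messages, had 30845, 38739 and 40095 against 10344, 14015 and 25262. Of 90 nuclear genes for respiratory chain subunits 22 were higher and 4 were lower (median 0.46), opposite in direction to the mitochondrially encoded subunits of the same complexes. Ndufa2, a complex I subunit, had 2614, 3149 and 3451 in the histone-rich libraries and 440, 604 and 2028 in the mitochondria-rich ones. Mitochondrial ribosomal protein genes, also encoded in the nucleus, were divided, with 12 of 77 higher and 7 lower (median 0.03).

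Transcript length moved with these classes. Length was compared over the 16530 tested protein-coding genes other than the clustered histone and mitochondrial ones. Of these, 78 had annotated transcripts under 500 bases. They had a median difference of 1.67, and 43 of them (55.1%) were higher and 1 was lower. From 500 to 1000 bases the median was 0.63 over 911 genes, from 2000 to 4000 bases it was -0.15 over 6572 genes, and from 8000 bases it was 0.22 over 942 genes. The smaller medians therefore lay in the middle of the length range. Whether length accounts for the differences of the ribosomal and respiratory chain genes was not tested.

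Pseudogenes and receptor families with low counts were also more often higher. Of 705 tested processed pseudogenes 196 were higher and 34 were lower (median 0.91), and of 447 unprocessed ones 79 were higher and 2 were lower (median 0.74). Those that copy ribosomal protein genes were the exception, with 4 of 24 higher and 8 lower (median -1.46). That median was -0.72 without MTX 3 and -0.78 without HMS-I1 3, and its direction turned when near-identical copies were summed (1.03) or genes that share at least 50% of their words were left out (2.00). Of 1462 olfactory and vomeronasal receptor genes 144 passed the filter, of which 33 were higher and 1 was lower (median 1.04). The vomeronasal receptor gene Vmn2r107 had 158, 210 and 234 normalised counts in the histone-rich libraries, against 1.76, 8.998 and 13.8 in the mitochondria-rich libraries. Zinc finger (Zfp) genes were not low in counts, with list means of 8.19 to 8.34 on the log2 scale in the histone-rich libraries. Of 350 such genes 45 (12.9%) were higher, near the 12.8% over all genes. Another 18 (5.14%) were lower, against 12% over all genes (median 0.31). All 16530 tested protein-coding genes other than the clustered histone and mitochondrial ones had 1930 higher and 2096 lower, with a median of -0.04. They include the receptor and zinc finger genes just given. In families with few counts the filter keeps members partly for their level in 1 set, so these shares describe only the members that passed.

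Markers of the cell types of the testis were compared between the sets as well. The libraries are of whole tissue, where fewer cells of a type and less RNA per cell cannot be told apart. Over all genes 12.8% were higher and 12% were lower, which is the background for the counts of each list. Lists of premeiotic germ cell markers had medians below 0. Of 15 tested markers of undifferentiated spermatogonia 4 were lower and 2 were higher (median -0.55). Sall4, a stem cell transcription factor, had 24.7, 41.6 and 80.6 normalised counts in the histone-rich libraries, against 115, 151 and 224 in the mitochondria-rich libraries, and the GDNF receptor gene Ret (-1.57) was lower as well. Pou5f1, a pluripotency factor, went the other way, with 78.5, 128 and 161 against 13.4, 33.4 and 57.5, as did the homeobox gene Lhx1 (1.32). Of 12 markers of differentiating spermatogonia 3 were lower and none was higher (median -0.26). They were the retinoic acid target Stra8 (-1.36), Dmrt1, a regulator of entry into meiosis (-1.34), and Sohlh2 (-0.87), a spermatogonial transcription factor.

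The S phase and cell division list, which holds none of the histone genes, lay lower while the clustered histones lay higher. Of 25 genes 5 were lower and none was higher, and 24 of 25 had a lower mean (median -0.34). E2f1, a transcription factor of the G1 to S transition, had 49.99, 75.1 and 81.8 normalised counts in the histone-rich libraries, against 160, 186 and 250 in the mitochondria-rich libraries. The replication helicase subunits Mcm4 (-0.89), Mcm2 (-0.78) and Mcm6 (-0.58) and the mitotic kinase Plk1 (-1.09) were the other lower members. The list mean was 9.71 to 9.88 in the histone-rich libraries, against 10.04 to 10.41 in the mitochondria-rich libraries, and it was lower in all 5 groups.

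Meiotic markers showed little net difference. Of 16 early prophase markers only Zcwpw1, a reader of recombination sites, was lower (-0.40) and none was higher (median -0.16). The synaptonemal complex genes Sycp1 and Sycp2 overlapped, at -0.40 and 1.23. Of 17 pachytene and later spermatocyte markers 3 were higher and 3 were lower (median 0.11). The sperm membrane gene Adam3 had 42162, 45094 and 55052 normalised counts in the histone-rich libraries, against 11807, 17171 and 23721 in the mitochondria-rich libraries, and Ybx2, which stores germ cell mRNAs, had 8388, 14463 and 19278 against 20038, 26597 and 60556. Ldhc, the lactate dehydrogenase of germ cells, differed by 0.00.

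Round spermatid markers were higher on balance, with 6 of 18 higher, 2 lower and 16 having a higher mean (median 0.49). Spaca4, a sperm acrosome membrane protein, had 3453, 4869 and 6246 normalised counts in the histone-rich libraries, against 69.0, 717 and 1609 in the mitochondria-rich libraries. Others that were higher were Spag4 (1.66), Catsper4 (1.64), an ion channel subunit of the flagellum, Lyzl1 (1.46), and the spermatid kinases Tssk1 (1.24) and Tssk2 (0.67). The lower members were the sperm glycolytic enzyme gene Gapdhs (-0.95) and the acrosomal protease gene Acr (-0.54). The mean of the list was lowest in TSA 2 (10.33) and TSA 3 (11.34), while the 7 other mitochondria-rich libraries lay at 12.04 to 12.45 and the histone-rich ones at 12.43 to 12.74. Within groups the median difference was 1.90 for TSA, 0.40 for HMS-I1, 0.31 for AA, 0.03 for MTX and -0.02 for Control, so it was largest where those 2 libraries entered, and the median over all libraries was 0.30 without TSA 2.

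Elongating spermatid genes were divided. Of 23 tested genes 6 were higher and 3 were lower (median 0.16). Tnp1, the transition protein that comes between histones and protamines, had 222035, 249591 and 341615 normalised counts in the histone-rich libraries, against 19232, 67740 and 104312 in the mitochondria-rich libraries. Prm2, a protamine, had 173393, 217359 and 256801 against 59107, 87124 and 115450, while the sets overlapped for Prm1. Spata19, a protein of sperm mitochondria, was higher (1.95), as were Prm3 (1.44), Fabp9 (1.11) and Spem1 (0.51). Smcp, which encodes the cysteine-rich protein of the mitochondrial capsule in sperm, had 8365, 9159 and 11926 in the histone-rich libraries, against 35300, 64247 and 166298 in the mitochondria-rich libraries. Spata3 (-0.87) and Spata18 (-0.68) were also lower.

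Somatic cell lists had medians below 0, although in most of them the larger part of the markers overlapped between the sets. Of 25 Sertoli cell markers 11 were lower and 1 was higher (median -0.58), and the list mean was 9.22 to 9.40 in the histone-rich libraries against 9.65 to 10.3 in the mitochondria-rich libraries. Sox9, the transcription factor that sets Sertoli cell fate, had 176, 218 and 288 normalised counts in the histone-rich libraries, against 636, 863 and 1109 in the mitochondria-rich libraries. Wt1, another Sertoli cell factor, had 796, 844 and 941 against 1739, 3103 and 4182. The homeobox gene Rhox8 (-2.08), Aard (-1.70) and clusterin, Clu (-0.87), were lower too. The exception was Cst12, a cystatin gene, with 5367, 7956 and 8548 in the histone-rich libraries and 1898, 3249 and 4450 in the mitochondria-rich ones.

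Of 11 myoid and smooth muscle genes 8 were lower and 1 was higher (median -1.08), the largest share among the cell type lists. Acta2, smooth muscle actin, had 1185, 1348 and 1551 normalised counts in the histone-rich libraries, against 2555, 3735 and 4206 in the mitochondria-rich libraries, and the filament gene Des had 55.5, 103 and 164 against 268, 373 and 487. Actg2, another smooth muscle actin gene, went the other way, with 6401, 7356 and 8090 against 1563, 4493 and 5310. Of 17 Leydig cell genes 4 were lower and none was higher (median -0.43). They were the luteinising hormone receptor gene Lhcgr (-1.94), the testosterone-making enzyme gene Hsd17b3 (-1.64), Por (-0.95) and Insl3 (-0.92), whereas Star, the cholesterol carrier, overlapped at 1.02. The Leydig list overlapped between the sets, and its median was -0.64 in HMS-I1, -0.61 in AA and -0.95 in TSA, but 0.15 in MTX and 0.08 in Control.

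Vascular, immune and matrix lists also had medians below 0, with most members overlapping. Their shares of lower genes were 16.7% for endothelium, 17.6% for matrix and 20% for leukocytes, against 12% over all genes. Their shares of higher genes were 8.33%, 0% and 5% in the same order, against 12.8% over all genes. All 17 extracellular matrix genes had a lower mean and 3 were lower (median -0.87). Bgn, the proteoglycan biglycan, had 381, 805 and 937 normalised counts in the histone-rich libraries, against 2189, 4626 and 5330 in the mitochondria-rich libraries, and Sparc (-1.47) and Dcn (-1.05) were the other lower members. Of 20 leukocyte genes (median -0.77) 4 were lower, among them Cd74 (-2.40), the chaperone of class II antigen presentation, and 1 was higher, Aif1, for a calcium-binding protein, at 10315, 12398 and 14046 against 1304, 4730 and 6250. Of 12 endothelial genes (median -0.53) 2 were lower, among them the junction cadherin Cdh5 (-1.43), and 1 was higher. Of 5 tested erythroid genes (median -0.49) 1 was lower, the globin gene Hba-a2 (-1.70), which shares 91.0% of its words with other transcripts. The immediate early genes, which respond within minutes to handling or stimulation of tissue, had 5 of 19 lower and none higher (median -0.50). Egr1, a transcription factor of this kind, had 22.3, 28.7 and 64.8 in the histone-rich libraries, against 139, 210 and 268 in the mitochondria-rich libraries.

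**Figure D4:**
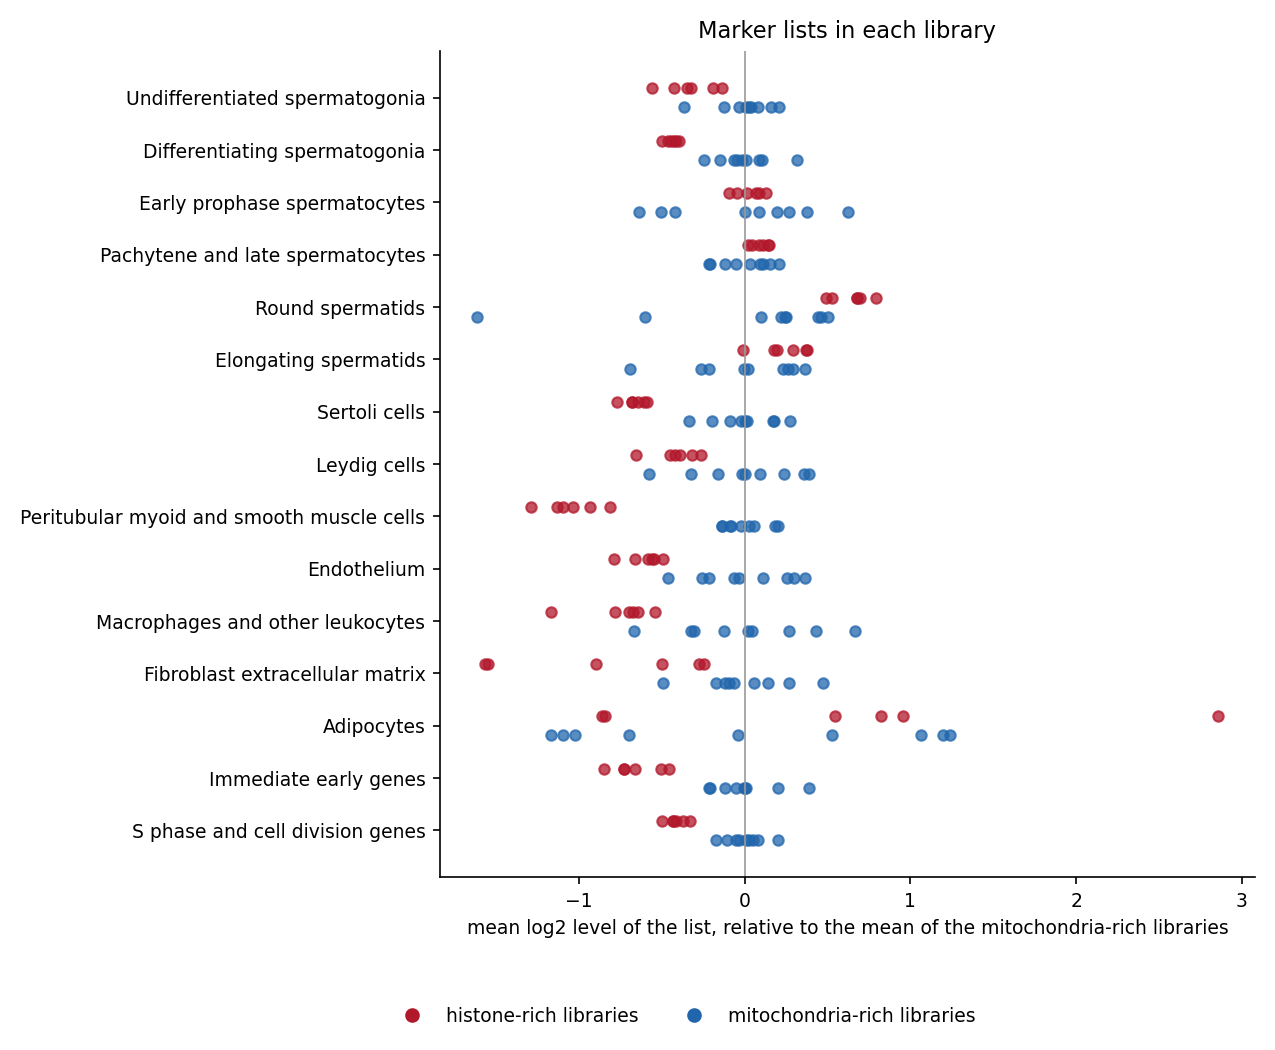
Mean log2 level of each marker list in each library, relative to the mean over the mitochondria-rich libraries, with 1 point per library and the histone-rich libraries above the mitochondria-rich ones in each row. The sets did not overlap for the differentiating spermatogonia, Sertoli, myoid, endothelial, immediate early and S phase lists, where the histone-rich libraries lay lower, while early prophase, pachytene and adipocyte lists overlapped.

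The lists were lower in the histone-rich libraries of all 5 groups for both kinds of spermatogonia, Sertoli cells, myoid cells, endothelium, leukocytes, matrix, immediate early and S phase genes, by the mean of each list. Round spermatid, epididymis and efferent duct, ribosomal protein and nuclear respiratory chain lists were higher in all 5 by the same measure, although the median of the round spermatid genes was -0.02 in the Control group. Markers of tissue that adjoins the testis were looked at as well. Of 12 adipocyte genes only Adipoq, for adiponectin, was higher, at 466, 611 and 1013 normalised counts in the histone-rich libraries against 18.7, 184 and 245 in the mitochondria-rich libraries. The adipocyte list (median 0.46) was highest in Control 1, and without that library its median was -0.12. Of 18 genes of the epididymis and efferent ducts 6 were tested (median 0.92) and 2 were higher, the defensin gene Defb30 (1.93) and the chloride channel gene Cftr (1.84), while the defining duct genes Lcn5, Lcn8 and Ovch2 were at 0 in every library. The mean of the 6 was 8.49 to 8.80 in the histone-rich libraries, against 7.22 to 8.02 in the mitochondria-rich libraries, with no overlap. The part of adjoining tissue in the other results was not tested.

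The largest differences free of sequence shared among the measured genes were picked out after the values were seen. Higher in the histone-rich libraries were Gip, the gene of an incretin hormone, at 76.4, 117 and 184 normalised counts against 0, 2.45 and 8.27 in the mitochondria-rich libraries, Saxo2, a microtubule protein of cilia and sperm (3.50), and the collagen gene Col9a3 (3.42). Lower were the SCAN domain gene Scand1, at 14.7, 39.2 and 142 in the histone-rich libraries against 229, 499 and 1420 in the mitochondria-rich libraries, Tcf7l1, a Wnt pathway repressor (-3.66), and Creb3l1, a membrane-bound transcription factor (-3.45). In its longest transcript none of these 6 genes shares a 31-base word with the longest transcript of another measured gene. Other transcripts and RNAs that were not measured were not compared. The sets were apart for each of the 6.

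Relations among the libraries inside a set were looked at as well, 3 in each set and 6 in all. The share of mitochondrial mRNA and the level of the histone genes are the values by which the sets were named, so the relations that use them are given with no test. Among the 9 mitochondria-rich libraries the mean log2 level of the clustered histone genes was lower where the share of mitochondrial mRNA was higher, with a Pearson's r of -0.88 and a Spearman's rho of -0.90. Without HMS-I1 3 and MTX 2, the libraries farthest from the median share, r was -0.80. Within treatment groups, replicates 2 and 3 differed in opposite directions in the 2 measures in MTX, HMS-I1 and TSA, while in AA both measures were higher in replicate 3. Among the 6 histone-rich libraries r was 0.37 and rho was 0.31. Both quantities are parts of the same library total.

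Nuclear respiratory chain genes were likewise lower where mitochondrial mRNA took a larger share of a mitochondria-rich library, with r = -0.76 and rho = -0.77. Without HMS-I1 3 and MTX 2, r was -0.72. Replicates 2 and 3 differed in opposite directions in the 2 measures in all 4 treated groups. Among the histone-rich libraries r was 0.08 and rho was 0.14, and without Control 2 and TSA 1 r was -0.82, so that no direction held there.

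The Sertoli and elongating spermatid lists were compared with two-sided exact permutation of the pairings and Benjamini-Hochberg adjustment over the 6 relations. That adjustment took in the p-values of the relations given above with no test, so the adjusted values depend on them. In the mitochondria-rich libraries they were inversely related, with r = -0.74 (exact p = 0.0213, adjusted 0.0425) and rho = -0.78 (exact p = 0.0172, adjusted 0.0428). The lowest elongating spermatid means were those of TSA 2 (13.62), AA 3 (14.05) and TSA 3 (14.10), and the same libraries had the highest Sertoli means, 10.16, 10.17 and 10.27. Without Control 3 and TSA 2, the libraries farthest from the median spermatid level, r was -0.91 (exact p = 0.00655, adjusted 0.0393). Leaving out any single library of the set put the adjusted p between 0.0527 and 0.103, above the 0.05 threshold in all 9 cases. With values centred on the treatment group, over the 4 groups with replicates 2 and 3 in the set, r was -0.21, and the 16 arrangements allow no exact p below 0.125. Replicates 2 and 3 differed in opposite directions in the 2 lists in MTX, HMS-I1 and AA, and in the same direction in TSA. In the histone-rich libraries r was -0.53 (exact p = 0.299, adjusted 0.448) and rho was -0.37 (exact p = 0.497, adjusted 0.677), and without Control 2 and MTX 1 r was -0.86 (exact p = 0.125, adjusted 0.188).

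**Figure D5:**
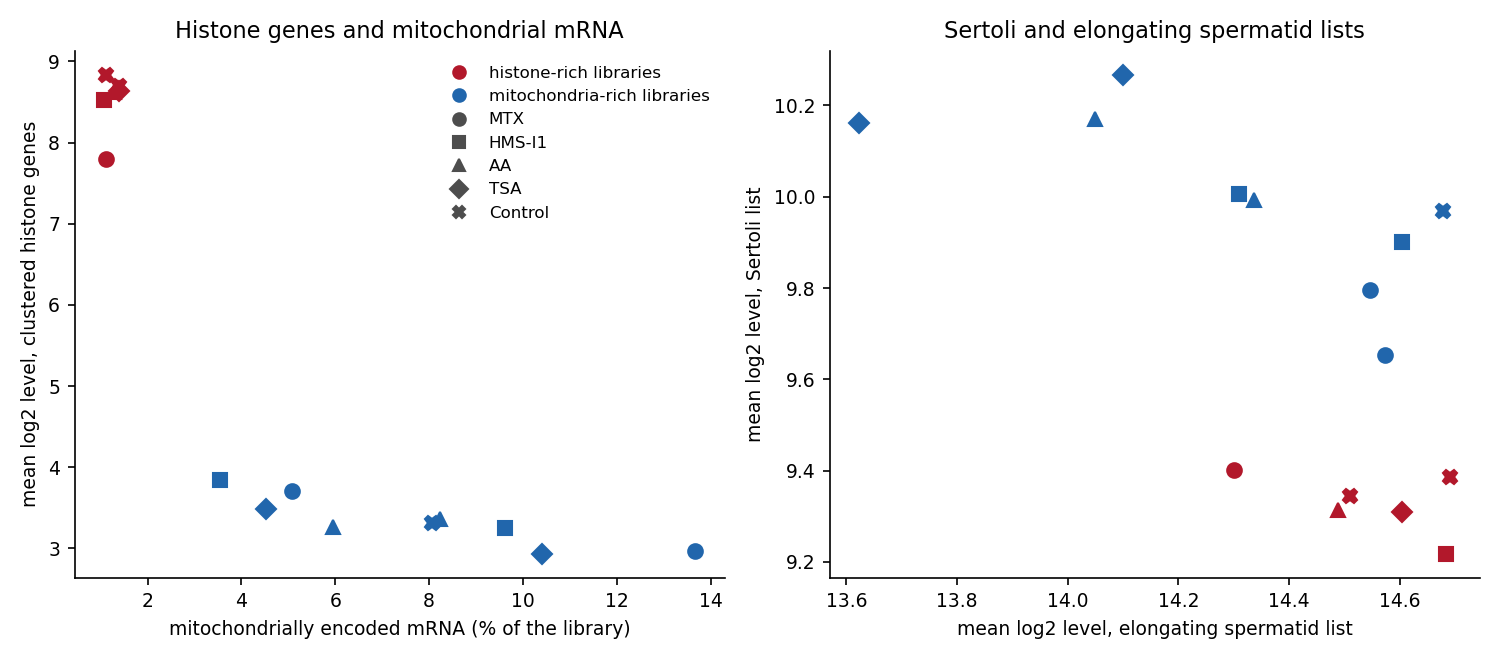
Left panel, mean log2 level of the clustered histone genes against the share of mitochondrially encoded mRNA in percent; right panel, mean log2 level of the Sertoli list against that of the elongating spermatid list, with 1 point per library, colour giving the set and shape the treatment group. In the mitochondria-rich libraries r was -0.88 on the left and -0.74 on the right, against 0.37 and -0.53 in the histone-rich libraries.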

How the data were processed

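Whole mouse testes were sequenced on an Illumina NovaSeq, per the labels' protocols. The submitters' processing notes name FastQC 0.11.9, Salmon 0.12.0, DESeq2 1.34.0 and build GRCm39. The deposited table gives DESeq2-normalised counts per gene, which are scaled signal and not whole reads; at most 14.98% of low values per library were whole multiples of the smallest step, so no count model was used. From these values log2(normalised count + 1) was computed (Python 3.11.15), over genes with a mean of at least 10. The table's 36118 genes were matched to GENCODE M21 by identifier (35825 matched), whose build differs, so no coordinates are given. Shared 31-base words were read from the longest transcript of each measured gene, and RNAs that were not measured were not compared. The stem-loop was sought anywhere in all annotated transcripts of a gene, and AATAAA in the last 50 bases of any of them. Nuclear mitochondrial copies were found with blastn 2.17.0 (at least 90% identity over 90% of the length), and small RNAs within exons with bedtools 2.31.1 (at least 50% inside).

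The sets, gene lists and tests were chosen with earlier results of these data known. Named genes were the 12 largest differences each way among separated genes with a mean of at least 50, and in each list the 3 most abundant and the 2 most different members; other named members were chosen after their values were seen, and so were summing near-identical copies and leaving out genes that share at least 50% of their words. The relations were computed with exact permutation and adjusted over 6. The p-values of those that use the histone level or mitochondrial share, by which the sets were named, are not given. They did enter the adjustment. The scripts were tested on simulated data. The permutation p-values concern the association of 2 list means across libraries. They treat the libraries of a set as exchangeable whatever their treatment group, and the variation between libraries may be technical.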

Additional observations from a re-analysis of the deposited data

Results flagged for a closer look

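MTX 1 stood apart from the other 5 histone-rich libraries in its clustered histone genes. Its mean log2 level over all of them was 7.79, against 8.52 to 8.84 in the others. By class its H2A genes had 6.07 (7.397 to 7.996 in the others), its H2B genes 8.34 (8.94 to 9.25) and its H4 genes 9.14 (10.03 to 10.44). In each of these cases the gap to the nearest library exceeded Dixon's 95% limit. The level over all histone genes contains these classes, so the flags are not separate. Its H1 genes had 10.02, within the 9.84 to 10.10 of the others. Its H3 genes had 6.01, against 6.25 to 6.78 in the others, and were not beyond the limit. In all, 86 list levels were checked and 4 were beyond the limit, and chance flags about 1 in 20.

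The sets differed in opposite directions between treatment groups for 5 of 39 lists, a difference that was not tested. The elongating spermatid mean was higher in the histone-rich libraries by 0.23 in HMS-I1, 0.30 in AA and 0.74 in TSA, and differed by -0.26 in MTX. Pachytene and later spermatocyte markers differed by 0.30 in AA and 0.23 in TSA, and by -0.10 in MTX and -0.0445 in Control. Histone mRNA processing factors differed by 0.0714 in MTX, 0.18 in HMS-I1, 0.27 in AA and 0.29 in TSA, and by -0.0461 in Control. Adipocyte markers differed by -1.10 in HMS-I1 and -0.39 in AA, and by 2.72 in Control. Protein-coding genes other than the clustered histone and mitochondrial ones differed by 0.0556 in TSA, and by -0.0351 in MTX, -0.0204 in HMS-I1, -0.0452 in AA and -0.0190 in Control.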

How the results depend on the processing

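Each list's median kept its direction under the other scalings wherever the sets were apart in the list's mean, and the share of calls in the higher direction was 51.5% as deposited, 55.4% with median ratio scaling and 54.98% as a share of the library total. The median of the clustered histone genes was 3.60 with a pseudocount of 10, 6.09 with 0.1 and 6.56 with a minimum mean of 50. Summing near-identical copies gave 2213 genes higher and 2122 lower, and leaving out genes that share at least 50% of their words gave 1985 and 2055; both alternatives were chosen after seeing the data. Under them the median of the ribosomal protein pseudogenes turned to 1.03 and 2.00, that of the mitochondrial genes was -4.00 in the second, and that of the histone genes 5.11.

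Leaving out 1 library at a time gave 2313 to 2666 genes higher and 2168 to 2502 lower, histone medians of 5.17 to 5.46, mitochondrial medians of -3.71 to -3.28, Sertoli medians of -0.70 to -0.50 and round spermatid medians of 0.30 to 0.55. For the relation of histones to mitochondrial share r ranged over 0.01 to 0.64 in the histone-rich and -0.92 to -0.85 in the mitochondria-rich libraries. For the Sertoli and elongating spermatid lists it ranged over -0.92 to -0.19 in the histone-rich and -0.80 to -0.72 in the mitochondria-rich libraries, where the call was lost without any 1 of the 9. For the nuclear respiratory chain it ranged over -0.29 to 0.41 in the histone-rich libraries, turning negative without Control 1 (-0.10) or Control 2 (-0.29), and over -0.85 to -0.70 in the mitochondria-rich libraries. Without the 2 farthest libraries the histone relation had r = -0.80 and the respiratory chain relation r = -0.72 in the mitochondria-rich libraries, and the respiratory chain relation r = -0.82 in the histone-rich libraries. Centred on the treatment group, an alternative chosen after seeing the data, r in the mitochondria-rich libraries was -0.96 for histones, -0.21 for the Sertoli and spermatid lists and -0.99 for the respiratory chain, over 4 groups.

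No paired analysis was possible because replicate 1 of the 4 treated groups lies in the histone-rich set and replicates 2 and 3 in the other, so replicate number and set cannot be told apart there. Averaging each treatment group's own difference between the sets over the 5 groups, which keeps the group fixed, gave medians of 5.23 for histones, -3.57 for mitochondrial genes, -0.57 for Sertoli cells and 0.44 for round spermatids. Depth, estimated only roughly, was lower in every histone-rich library, and genes with few reads are the least certain there.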
